A study of Rattus norvegicus with 12 samples.

Results

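Striatum that had lost its dopamine input and then received L-DOPA was compared with striatum of the opposite, intact hemisphere of saline-treated rats, to ask what L-DOPA left different from the intact side. The comparison used 6 of the 12 expression arrays of the series, chosen by their labels and not by any measured value: 3 arrays of lesioned striatum after L-DOPA (the L-DOPA arrays) and 3 of non-lesioned striatum after saline (the non-lesioned arrays). Every rat was a male Wistar rat in which the dopamine fibres that run to the striatum in the medial forebrain bundle had been injected, on the left, with the neurotoxin 6-hydroxydopamine. Rats were kept if they made 7 or more turns per minute under methamphetamine at 3 mg/kg. L-DOPA was given at 100 mg/kg into the abdomen on each of 7 days, each time after benserazide, a drug that blocks conversion of L-DOPA to dopamine outside the brain; control rats received saline. The design text assigns 3 animals to a group. Age and the time from the last injection to dissection are not given in the sources used here.

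The groups differed in lesion, drug and hemisphere at once, and these cannot be told apart in their difference. The intact hemisphere belonged to a rat with a lesion on the other side, so it is no striatum of an unoperated animal. For this reason the 3 arrays of lesioned striatum after saline (the lesioned saline arrays) are shown beside each main result. They share their controls with the other comparisons, and whether they came from the same rats as the non-lesioned arrays is not stated. The third comparison, L-DOPA against lesioned saline, likewise shares the L-DOPA arrays. The remaining 3 arrays of the series, lesioned striatum after L-DOPA with the drug zonisamide at 50 mg/kg, are not compared here. They entered the fit through the estimate of the spread and the choice of probe.

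Most striatal neurons are spiny projection neurons, which use GABA and fall into a pair of output pathways. Direct-pathway cells carry the D1 dopamine receptor and release dynorphin and substance P, and indirect-pathway cells carry the D2 receptor and release enkephalin. Loss of dopamine is known to lower the direct-pathway peptides and to raise enkephalin. Repeated L-DOPA is known to raise dynorphin and activity-dependent genes in denervated striatum, and astrocytes and vessels of this tissue are known to respond as well.

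RNA was hybridised in 1 colour, and all values below are log2 signals relative to the 75th percentile of the array, so a level of 0 means the 75th percentile. On the 6 arrays that percentile lay between 850 and 1399 intensity units, 69.9% to 72.8% of probes were well above background, and arrays correlated at 0.942 to 0.969. Replicate spots of a probe varied by 21.8% to 22.6% on the non-lesioned arrays and by 13.6% to 24.2% on the L-DOPA arrays. On the lesioned saline arrays they varied by 3.74% to 15.7%. The scanner files mark the quality of all 6 compared arrays as to be evaluated, and that of lesioned saline replicate 3 as in range. With 3 arrays in each group, precision is limited by their number. Markers of striatum were present throughout: Ppp1r1b, Pde10a, Drd2, Adora2a, Penk and Tac1 stood above the 75th percentile on all 6 arrays. Drd1 lay below it on all 6 (-1.51 to -0.77) and was above background on each. Markers of the choroid plexus, a tissue inside the ventricle beside the striatum, varied from array to array. The mean of 12 such genes was -4.20, -4.02 and 1.30 on the non-lesioned arrays and -3.28, 0.57 and -0.91 on the L-DOPA arrays, in order of replicate. In all 5 slides were used. Replicate 1 of both groups lay on the first, and L-DOPA replicate 3 lay with non-lesioned replicate 2 on the third.

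Of 18942 features tested (a feature is a gene, or a probe without a symbol), 234 differed between the L-DOPA and the non-lesioned arrays at an adjusted p under 0.05 (1.24%, limma). Of these, 175 were higher after L-DOPA (0.924% of the features) and 59 were lower (0.311%). A gene symbol was known for 115 of the higher and 39 of the lower features. In all 234 the groups did not overlap, which held for 19.1% of all features (10.1% higher and 9.02% lower). The median difference was 1.5 for the higher and -1.29 for the lower features, against 0.04 over everything tested, and 159 higher and 48 lower features differed more than 2-fold. In bulk tissue, fewer cells of a type and less RNA per cell cannot be told apart, for these and all later values.

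Fitted on the same features, lesioned saline against non-lesioned striatum gave 0 calls (1497 features, 7.90%, had an unadjusted p under 0.05 with limma, against 2731 or 14.4% for L-DOPA against non-lesioned). L-DOPA against lesioned saline gave 102 calls (0.538%). With quantile normalization in place of the percentile, 150 features were called, 91 higher and 59 lower, so that the share of higher calls was 60.7% and not 74.8%.

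The number of calls depended on the arrays and on the slide. With slide as a fixed block 6 features were called, none of them among the 234, and with slide as a random block 337. Within the first slide the median difference was 1.21 for the 175 higher and -1.07 for the 59 lower features, and within the third slide 1.62 and -1.37; groups that do not overlap fix these directions. Without non-lesioned replicate 1, 2 or 3 the calls numbered 61, 71 and 76, and without L-DOPA replicate 1, 2 or 3 they numbered 365, 6 and 30. Of the 234 calls, 46, 54, 51, 192, 6 and 26 remained in these fits. Fitted on the 6 arrays alone, which leaves 4 residual degrees of freedom in place of 8, no feature passed in limma (2084 at an unadjusted p under 0.05; smallest adjusted p 0.0804).

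Among the called genes named here, Meox1 was the only one whose call remained without each of the 6 arrays in turn. Cimap2, Gprc5a, Nptx1 and Svop lost theirs, among these fits, only without L-DOPA replicate 2, where their adjusted p was 0.0692 to 0.0740. All the other named calls were lost in 2 or more of these fits, and those of Serinc2 and Adamtsl5 in each of the 6. Meox1, Cimap2 and Gprc5a were below background on every non-lesioned array. Their calls in these fits thus rest in part on signals below background.

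**Figure D1:**
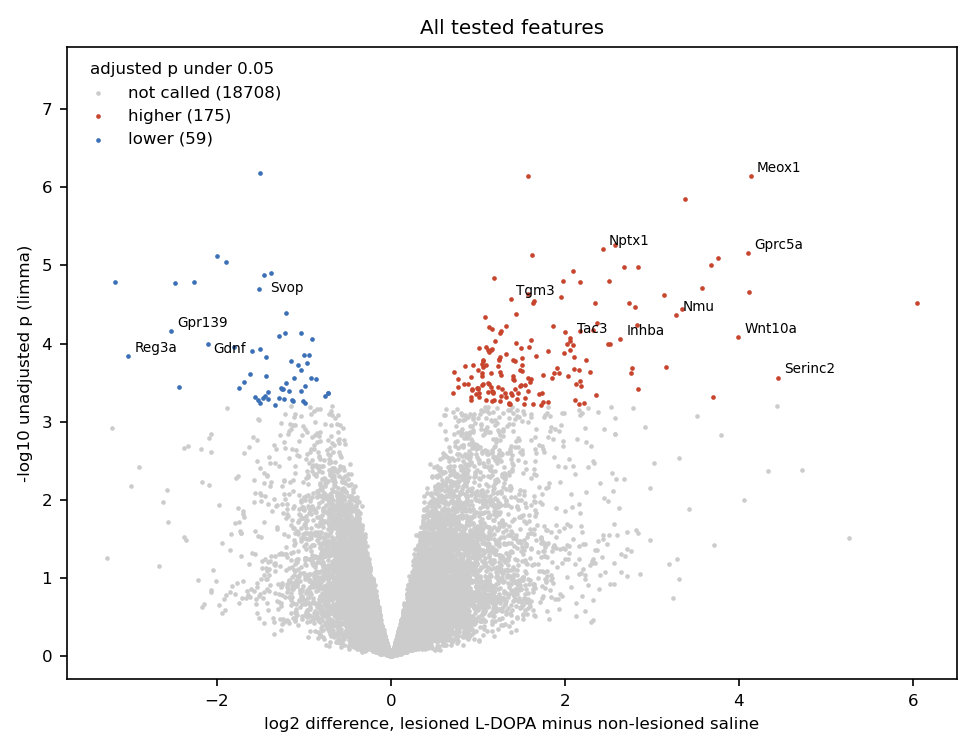
Log2 difference (L-DOPA lesioned minus non-lesioned saline, horizontal axis) against -log10 of the unadjusted limma p (vertical axis) for 18942 features, with red points for the 175 called higher, blue for the 59 called lower and grey for the rest. More called points lie on the right than on the left, and the rises reach farther from 0 than the falls.

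The largest rises were in genes that were dim or not detected in intact striatum. Meox1, a homeobox transcription factor of developing muscle and vessels, stood at -8.88, -8.59 and -8.61 on the non-lesioned arrays and at -5.46, -4.28 and -3.92 on the L-DOPA arrays. It was not well above background on any non-lesioned or lesioned saline array and was above it on every L-DOPA array. A fold is then only a bound on the mean difference. It was taken against each dim array's lowest signal marked as above background, or the gene's own signal where that was higher. Such a bound leaves out the spread between arrays. By this bound Meox1 was at least 9.87-fold higher (adjusted p = 0.00455). The gene passed the filter through the L-DOPA arrays alone, so its p rests in part on signals below background, and the call was lost with normexp background correction, with the 6 arrays fitted alone and with slide as a fixed block (adjusted p = 0.0677, 0.0970 and 0.111).

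Wnt10a, a secreted Wnt ligand, was measured on every array, at -4.10, -3.85 and -4.14 in intact striatum and at -0.53, -0.16 and 0.59 after L-DOPA. The L-DOPA arrays lay far above all others, and the lesioned saline arrays (-4.30, -3.23 and -4.69) lay with the intact ones. The difference was 3.99 ± 0.63 (SE), or 15.9-fold, with an adjusted p of 0.0268.

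Serinc2, a member of a family of membrane proteins, showed the largest difference of any called gene with a symbol, 4.45 ± 0.82 (21.8-fold, adjusted p = 0.0376). Its levels were -2.68, -3.21 and -2.13 in intact striatum, -1.78, -1.93 and -0.24 after the lesion with saline, and 1.64, 2.50 and 1.19 after L-DOPA. The saline lesion arrays therefore lay between the others, each above every intact array.

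Further genes that no non-lesioned array measured above background were higher by a bound, and they too passed the filter through the L-DOPA arrays alone. The lens crystallin Cryba2 was at least 16.8-fold, the orphan receptor Gprc5a at least 17.2-fold and the cilium gene Cimap2 at least 10.5-fold higher. Sucnr1, a receptor for succinate, was at least 6.27-fold and the muscle adaptor gene Stac3 at least 7.94-fold higher. Prdm1, a transcriptional repressor of lymphocytes, was at least 4.79-fold higher. In all, 18 of the 175 higher features were below background on every non-lesioned array. Bpifa1, a secreted protein best known from airways, was above background on 1 of 3 non-lesioned arrays and differed by 3.71 ± 0.74 (adjusted p = 0.0451). It too passed the filter through the L-DOPA arrays alone, so its p rests in part on signals below background.

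Nmu, which encodes the neuropeptide neuromedin U, rose from -4.10, -4.14 and -4.48 to -1.75, -1.07 and -0.05. Lesioned saline arrays stood between, at -3.13, -2.30 and -1.83. The difference from intact striatum was 3.28 ± 0.48 (9.73-fold, adjusted p = 0.0201); the part between intact and lesioned saline was 1.82 ± 0.48 and that between lesioned saline and L-DOPA 1.46 ± 0.48, neither of which passed.

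**Figure D2:**
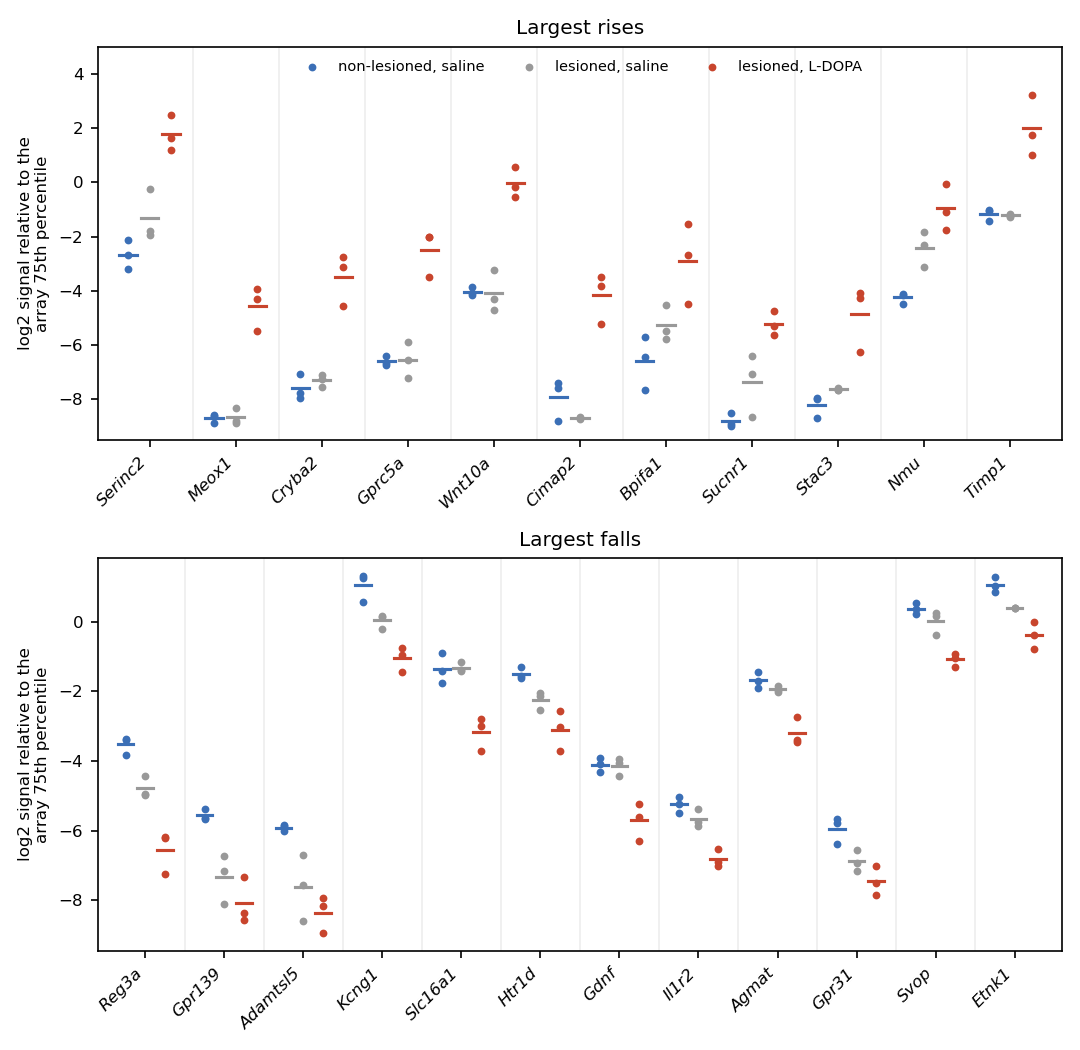
Level on each array (points; log2 relative to the 75th percentile of the array) and group mean (bars) of called genes with the largest rises (top) and the largest falls (bottom) for non-lesioned saline (blue), lesioned saline (grey) and lesioned L-DOPA (red), n = 3 each. In every gene the 3 red points lie on one side of the 3 blue points; grey points lie with the blue ones for Wnt10a and Timp1 and between the groups for Nmu and Kcng1.

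Promoters of the called genes were read from RefSeq (assembly GRCr8, 250 bases before to 50 after the first listed start of each gene). A promoter was found for 94 of the higher and 31 of the lower genes, and for 8819 genes that were tested and not called. Both strands were searched for TGANTCA, where N is any base. This is a looser form of the AP-1 site bound by Fos and Jun proteins, TGACTCA or TGAGTCA. Some matches, such as TGAATCA in Cimap2, have A or T as the middle base and so differ from that site. The looser form was found in 16 of the 94 higher promoters (17.0%), in 1 of the 31 lower ones (3.23%), in 5.18% of the promoters of genes not called and in 7.33% of all 27457 promoters in the table. Median GC content was 60.0% in the higher and 60.3% in the uncalled promoters. The CRE motif TGACGTCA was in 2.13% of the higher, 9.68% of the lower (3 of 31) and 3.11% of the uncalled promoters. No test was made of these shares, and a match is a description of letters, not of binding.

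The windows below show where the AP-1 letters (capitals) stand in the promoters of 8 of the 16 higher genes, those with large rises and those of neuropeptides and glia; each runs 5′ to 3′ on the gene's strand. They are Cryba2 (chr9:83899189-83899255, minus strand, motif at position -94 from the start site), Cimap2 (chr5:126630744-126630810, minus, -88), Bpifa1 (chr3:163087762-163087828, plus, -173), Sucnr1 (chr2:146368669-146368735, plus, -159), Nmu (chr14:32198753-32198819, plus, -160), Prok2 (chr4:133917949-133918015, minus, -52), Emp1 (chr4:169943988-169944054, plus, -212, the first of 2 matches) and Nts (chr7:39461064-39461130, minus, -212).
Cryba2: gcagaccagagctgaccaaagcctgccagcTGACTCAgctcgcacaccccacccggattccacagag
Cimap2: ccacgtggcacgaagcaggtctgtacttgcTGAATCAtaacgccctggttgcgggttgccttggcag
Bpifa1: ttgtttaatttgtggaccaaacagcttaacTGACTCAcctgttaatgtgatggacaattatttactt
Sucnr1: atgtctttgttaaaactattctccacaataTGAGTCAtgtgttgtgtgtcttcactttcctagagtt
Nmu: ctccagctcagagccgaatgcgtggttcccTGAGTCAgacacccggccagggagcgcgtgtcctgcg
Prok2: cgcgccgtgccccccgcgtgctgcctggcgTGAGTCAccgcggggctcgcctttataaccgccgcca
Emp1: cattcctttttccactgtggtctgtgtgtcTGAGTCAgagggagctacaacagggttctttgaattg
Nts: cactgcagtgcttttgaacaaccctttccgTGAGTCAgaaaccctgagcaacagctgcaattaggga

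Genes that encode the proteins of AP-1 did not pass in either direction. Fos differed by -0.94, Fosl2 by -0.70, Jun by 0.41 and Jund by 0.28. Fosb was not matched to a probe and is not analysed here.

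Late activity genes, transcribed hours after neurons begin to fire, were in part higher after L-DOPA than in intact striatum. Of 17 tested members 4 were called higher and none lower, against 0.924% of all features called higher, and 16 had a positive difference. Their median was 0.91 against 0.04 over all features, and it was 0.69 within the first and 0.78 within the third slide. The mean of the list was -0.56, -0.55 and -0.87 on the non-lesioned arrays, -0.35, -0.44 and -0.27 on the lesioned saline arrays and 0.23, 0.33 and 0.28 on the L-DOPA arrays, with no overlap between the groups. The number called ran from 0 (without L-DOPA replicate 2, among other choices) to 5, and was 1 when any single non-lesioned array or L-DOPA replicate 3 was left out. Beside this and every later list stand the shares over all features: 54.6% had a positive difference, 0.924% were called higher and 0.311% lower.

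Nptx1, a pentraxin that gathers AMPA receptors at synapses, had the smallest p of the list. It stood at -2.26, -1.92 and -2.36 in intact striatum, at -1.08, -0.97 and -1.57 after the lesion and at 0.66, 0.26 and -0.16 after L-DOPA. The groups formed 3 separate steps, and the difference of 2.43 ± 0.29 (5.40-fold, adjusted p = 0.0134) was 2.92 within the first and 1.77 within the third slide.

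Inhba, the subunit of the activity-induced growth factor activin A, rose from 1.06, 1.17 and 0.83 to 2.63, 4.50 and 3.85. L-DOPA replicate 1 was the lowest of its group and still lay above all intact and lesioned saline arrays (1.75, 1.35 and 1.64). The difference was 2.64 ± 0.42 (6.22-fold, adjusted p = 0.0273). Its binding partner Fst, follistatin, was highest in the lesioned saline group: intact arrays stood at -0.32, -0.36 and -0.26, L-DOPA arrays at 0.49, 0.54 and 0.99 and lesioned saline arrays at 1.57, 1.08 and 1.47. The groups did not overlap, but Fst was not called (0.99 ± 0.24, adjusted p = 0.0856).

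The other called members were Gadd45b, a stress and activity gene of the DNA demethylation pathway (1.24 ± 0.21, adjusted p = 0.0312), and Pcsk1, a protease that cleaves peptide precursors (1.19 ± 0.19, adjusted p = 0.0279). Crem, a cAMP-responsive repressor, just missed the threshold on its brightest probe (1.02 ± 0.22, adjusted p = 0.0539), and its 4 other probes differed by 0.52 to 1.57. On the brightest probe its intact and lesioned saline arrays lay between -1.23 and -1.05 and its L-DOPA arrays at -0.38, 0.46 and -0.31. Members that did not pass included Nptx2 at 1.44, Ptgs2 at 1.13, Vgf at 0.96, Homer1 at 0.38 and Rgs2 at -0.32.

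Immediate-early genes, the first wave of transcription after a stimulus, did not move together. Of 24 tested members 2 were called higher and 2 lower, against 0.924% and 0.311% of all features, and the median was -0.13. Klf10, a transcription factor also induced by TGF-beta, was higher by 1.74 ± 0.34 (adjusted p = 0.0427), and Ier3, a stress-induced survival gene, by 1.5 ± 0.25 (adjusted p = 0.0287). Fos, Npas4 (-1.07), Arc (-0.27) and Egr1 (-0.01) did not pass.

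Klf2 and Klf4, transcription factors of the vessel wall and of neurons, were lower after L-DOPA than in either other group. Klf4 stood at -2.19, -2.38 and -2.41 in intact striatum, at -1.69, -2.23 and -1.86 in lesioned saline and at -3.26, -3.35 and -3.20 after L-DOPA, a difference from intact of -0.94 ± 0.16 (adjusted p = 0.0307). Klf2 differed by -0.98 ± 0.19 (adjusted p = 0.0414), although its lesioned saline arrays (-3.50, -3.56 and -3.25) lay above all intact arrays (-3.89, -4.37 and -3.93). For both genes L-DOPA differed from lesioned saline as well (Klf4 -1.35 ± 0.16, Klf2 -1.61 ± 0.19, adjusted p = 0.0114 each).

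Among 19 tested neuropeptide precursors 2 were called higher, Tac3 and Nts, and none lower, against 0.924% and 0.311% of all features. Of the 19, 13 had a positive difference, and the median was 0.64. The list median within slides was 1.13 and 0.46. Tac3, the precursor of neurokinin B, went from 1.55, 1.70 and 1.72 in intact striatum to 2.87, 2.58 and 3.11 after the lesion and 3.1, 3.48 and 4.59 after L-DOPA. All lesioned arrays of either treatment lay above the intact ones, and L-DOPA and lesioned saline overlapped. The difference from intact was 2.06 ± 0.33 (4.18-fold, adjusted p = 0.0270).

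Nts, the neurotensin precursor, went from -0.59, -0.50 and -0.56 to 0.28, 1.37 and 1.21, with lesioned saline arrays at 0.15, 0.21 and 0.48. Its difference was 1.51 ± 0.27 (2.85-fold, adjusted p = 0.0356), of which 0.83 ± 0.27 lay between intact and lesioned saline. As in Tac3, the lesioned saline arrays already stood above intact striatum, though that step was not called.

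Prodynorphin (Pdyn), the dynorphin precursor of direct-pathway neurons, stood above its intact level after L-DOPA. Intact arrays were at 3.00, 3.17 and 3.19, lesioned saline arrays at 2.50, 2.78 and 2.03 and L-DOPA arrays at 3.91, 4.14 and 4.55. Lesioned saline arrays were the lowest and L-DOPA arrays the highest, without overlap between any of the groups. The difference of L-DOPA from intact striatum was 1.08 ± 0.22 (95% interval 0.58 to 1.58, 2.11-fold) and missed the threshold (adjusted p = 0.0513), while the step from lesioned saline was 1.76 ± 0.22 (adjusted p = 0.0131).

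The other peptides of spiny neurons were nearer to their intact levels. Penk, from which enkephalin is cut, stood at 4.53, 4.30 and 4.17 in intact striatum and at 4.51, 5.09 and 5.33 after L-DOPA, with lesioned saline arrays at 5.02, 4.82 and 5.19. L-DOPA replicate 1 lay within the intact range, and the difference of 0.64 ± 0.21 was not called (adjusted p = 0.204). Tac1, the substance P precursor, differed by -0.33 ± 0.24 (95% interval -0.87 to 0.21), with L-DOPA arrays at 5.09, 4.62 and 4.53 against 4.93, 5.16 and 5.14.

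**Figure D3:**
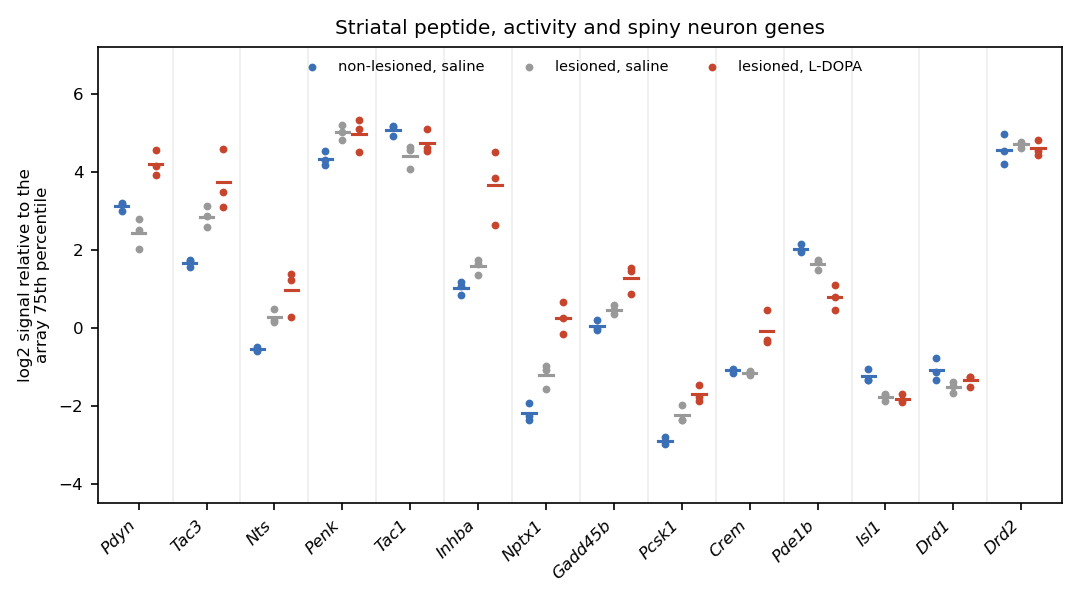
Level on each array (points; log2 relative to the 75th percentile of the array) and group mean (bars) of striatal peptide, activity-response and spiny neuron genes in non-lesioned saline (blue), lesioned saline (grey) and lesioned L-DOPA (red), n = 3 each. Pdyn is lowest in grey and highest in red, Tac3, Nts, Nptx1 and Pcsk1 climb from blue to grey to red, and Pde1b descends in the same order.

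Of 10 tested genes shared by both output pathways 2 were called lower, Pde1b among them, against 0.311% of all features; 7 were negative and the median was -0.44. Within slides the median was -0.67 and -0.52. None of the list was called with quantile normalization, with normexp, with no filter on dim probes, or when any single array other than L-DOPA replicate 1 was left out. Pde1b, a calcium-dependent phosphodiesterase, stood at 2.00, 1.94 and 2.15 in intact striatum and at 1.09, 0.78 and 0.46 after L-DOPA, with lesioned saline arrays at 1.69, 1.73 and 1.47.

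Every L-DOPA array lay below every intact and every lesioned saline array, and Pde1b differed from intact by -1.25 ± 0.24 (2.38-fold lower, adjusted p = 0.0416). Ppp1r1b, the dopamine-signalling protein DARPP-32, differed by -0.52 ± 0.26, Pde10a by -0.43 ± 0.22 and Rasgrp2 by -0.98 ± 0.39, none of which passed, and in each of these 3 the groups overlapped.

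None of 8 tested direct-pathway genes was called, and 7 were negative, with Pdyn the exception; their median was -0.33. Chrm4, the muscarinic M4 receptor, had the largest difference, -1.32 ± 0.33 (adjusted p = 0.0897), from 2.42, 2.26 and 2.02 to 1.62, 0.22 and 0.89. Isl1, a transcription factor of these cells, stood at -1.34, -1.06 and -1.35 in intact striatum, at -1.69, -1.73 and -1.89 in lesioned saline and at -1.87, -1.92 and -1.71 after L-DOPA. Both lesioned groups thus lay at one level below the intact arrays (-0.58 ± 0.15 for L-DOPA, adjusted p = 0.0962).

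The dopamine receptors themselves were within the spread of the arrays. Drd1 differed by -0.26 ± 0.21 (95% interval -0.72 to 0.19) and Drd2 by 0.03 ± 0.21 (-0.44 to 0.51), where a second Drd2 probe gave -0.24. None of the 6 tested indirect-pathway genes was called, and their median of -0.04 changed sign under some processing choices (range -0.16 to 0.08).

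Th, the rate-limiting enzyme of dopamine synthesis, was higher on both lesioned sides, at -2.80, -2.23 and -2.32 in intact striatum, -1.34, -1.42 and -0.51 in lesioned saline and -1.33, -1.39 and -1.22 after L-DOPA. The lesioned groups overlapped with each other and not with the intact arrays, but Th was not called (1.14 ± 0.31, adjusted p = 0.122). Midbrain dopamine neurons keep most of this transcript in their cell bodies, so its level in striatum does not check the lesion.

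Among the 12 largest falls was Gdnf, the survival factor for dopamine neurons that striatal neurons make. It stood at -3.92, -4.10 and -4.33 in intact striatum, at -3.95, -4.43 and -4.05 after the lesion with saline and at -5.22, -6.29 and -5.61 after L-DOPA. Intact and lesioned saline arrays shared a level, and all L-DOPA arrays lay below it (-1.59 ± 0.27, 3.01-fold lower, adjusted p = 0.0287). In the list of 17 growth factors it was the only one called lower (0.311% over all features), beside Inhba and Tgfb1 called higher (0.924%). The list median of 0.17 changed sign under some processing choices (range -0.09 to 0.47).

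Slc16a1, the monocarboxylate transporter MCT1 that carries lactate and ketone bodies, showed the same arrangement. Its levels were -1.41, -0.90 and -1.77 in intact striatum, -1.15, -1.38 and -1.42 in lesioned saline and -2.99, -2.79 and -3.73 after L-DOPA (-1.81 ± 0.30, 3.50-fold lower, adjusted p = 0.0287). Sgk1, a kinase induced by glucocorticoids, differed by -1.43 ± 0.26 (adjusted p = 0.0371), again with lesioned saline at the intact level (-0.13 ± 0.26).

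In several receptor genes the lesioned saline arrays stood below the intact ones too. Gpr139, an orphan receptor activated by aromatic amino acids, was measured on all intact arrays (-5.63, -5.65 and -5.38), on 1 of 3 lesioned saline arrays and on no L-DOPA array, so that it was at least 4.39-fold lower after L-DOPA. Htr1d, a serotonin receptor, stood at -1.55, -1.62 and -1.30 in intact striatum, at -2.13, -2.06 and -2.52 in lesioned saline and at -2.57, -3.72 and -3.02 after L-DOPA. Its 3 groups did not overlap, and L-DOPA differed from intact by -1.62 ± 0.29 (3.06-fold lower, adjusted p = 0.0360).

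It was the only one of 11 tested serotonin receptors that was called, and the median of that list was -0.31. Htr1b had the largest positive difference, 1.07 ± 0.29, and was not called. Among the largest falls were also Gpr31 (-1.51 ± 0.31) and Il1r2, the decoy receptor of interleukin 1 (-1.56 ± 0.31), each above background on 2 of 3 L-DOPA arrays.

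Kcng1, a silent potassium channel subunit, fell by 2.10 ± 0.34 on its brightest probe (adjusted p = 0.0280), while a second probe of the gene differed by -0.04, so the size of the difference depends on the probe. Etnk1, ethanolamine kinase 1, differed by -1.44 ± 0.29 on its brightest probe and by -0.27 on another. Reg3a, a secreted lectin, had the largest fall of any called gene with a symbol, -3.02 ± 0.51 (adjusted p = 0.0309; above background on 2 of 3 L-DOPA arrays). Adamtsl5, a matrix protein, was at least 3.70-fold lower, and Agmat, an enzyme gene, differed by -1.51 ± 0.25. Reg3a, Adamtsl5, Gpr139, Gpr31 and Il1r2 passed the filter through the intact arrays alone. Their p-values therefore rest in part on signals below background.

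Of 20 tested genes of synaptic vesicles 2 were called lower (0.311% over all features) and none higher, with a median of -0.10. Svop, a transporter-like protein of the vesicle membrane, went from 0.53, 0.23 and 0.36 to -0.93, -1.29 and -1.04, with lesioned saline arrays at 0.26, 0.16 and -0.39. The L-DOPA arrays lay below all others, by -1.46 ± 0.19 against intact (2.75-fold lower, adjusted p = 0.0134) and -1.10 ± 0.19 against lesioned saline (adjusted p = 0.0414). Syt2, a fast calcium sensor of release, differed by -1.41 ± 0.27 (adjusted p = 0.0427). Syn2 was at 0.65 and Tspoap1 at -0.59, neither called.

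Some genes of MHC class I antigen presentation were higher after L-DOPA. Of 13 tested members 4 were called higher (0.924% over all features), none lower and 9 not at all. In 12 the difference was positive (54.6% over all features). The median was 0.86 (0.62 within the first and 1.14 within the third slide). The mean of the list was -1.42, -1.59 and -1.26 on the intact arrays, -1.47, -1.40 and -1.19 on lesioned saline and -1.0, -0.41 and -0.43 after L-DOPA, so that lesioned saline lay with intact striatum. The number called ran from 0 to 6 over the processing choices and was 0 with no filter on dim probes, with normexp background correction, and without non-lesioned replicate 2 or L-DOPA replicate 2 or 3.

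RT1-A1, a classical class I heavy chain, stood at 1.83, 0.94 and 1.55 in intact striatum, at 1.23, 1.36 and 2.03 in lesioned saline and at 2.80, 3.45 and 3.07 after L-DOPA. Every L-DOPA array lay above every other array (1.67 ± 0.28, 3.18-fold, adjusted p = 0.0308), and a second probe gave 2.94. RT1-S3 differed by 1.85 ± 0.34 and RT1-CE5 by 1.48 ± 0.28. Rat class I genes are near-identical copies that can share a probe, so which of them changed is uncertain.

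Tap2, a subunit of the peptide transporter that loads class I molecules and has no such copy in the list, was higher by 1.00 ± 0.19 (adjusted p = 0.0416), from -1.79, -1.86 and -1.28 to -0.68, -0.40 and -0.85. Its L-DOPA arrays lay above all intact and lesioned saline arrays. Tap1, the other subunit, was at 1.41 and B2m, the light chain, at 0.10, neither called. RT1-CE2 (2.29 ± 0.41, a second probe at 3.79) and RT1-CE7 (2.10 ± 0.37), which were not in the list and were picked with their values known, were also called.

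Interferon-response genes had a median of 0.76, with 14 of 17 tested members positive and 1 called. That was Ifitm3, a restriction factor against viral entry, which rose from -2.57, -2.65 and -2.25 to -1.71, -1.13 and -1.45, above lesioned saline arrays at -2.56, -2.54 and -2.70 (1.05 ± 0.18, 2.08-fold, adjusted p = 0.0312). Oas1a was at 1.38, Mx1 at 1.11 and Irf1 at 0.44 (a second probe at 0.19), none called.

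An interferon-response motif, the letters GAAA followed after any 2 bases by GAAA on either strand, was found in 8 of 13 promoters of the MHC list (61.5%) and in 8 of 12 of the interferon list (66.7%), against 2.90% of promoters of genes not called. Both lists were chosen by known function, so high shares can follow from that choice and do not bear on this comparison. Most of their tested members (9 of 13 and 16 of 17) were themselves not called. The NF-kB motif was in 3 of the 13 MHC promoters (23.1%). Near-identical class I genes can have near-identical promoters, so these are not independent matches. The NF-kB motif was in 0 of the 94 higher promoters, 0 of the 31 lower ones and 0.431% of those of genes not called. The 3 MHC promoters with it thus belonged to members that were not called. Among all 94 higher promoters 7 held the interferon-response motif (7.45%). Of the 4 called MHC members 2 held it, Tap2 and RT1-S3, and RT1-A1 and RT1-CE5 did not. It is shown in capitals for the called genes Tap2 (chr20:4652298-4652367, minus strand, motif at position -41), RT1-S3 (chr20:2675386-2675455, plus, -112, here on the opposite strand and so spelled in reverse complement) and Ifitm3 (chr1:205541763-205541832, minus, -44).
Tap2: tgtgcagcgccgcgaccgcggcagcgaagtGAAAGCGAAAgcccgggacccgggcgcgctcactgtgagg
RT1-S3: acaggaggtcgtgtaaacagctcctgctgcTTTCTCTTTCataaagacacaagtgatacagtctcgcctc
Ifitm3: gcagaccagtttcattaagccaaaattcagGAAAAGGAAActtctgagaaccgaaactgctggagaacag

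Genes of reactive astrocytes had the highest median of the cell-type lists described here, 1.04, and all 17 tested members were positive. Of these, 2 were called higher, Timp1 and Emp1, against 0.924% of all features. The number called was 6 without L-DOPA replicate 1 and 0 when any single one of the other 5 arrays was left out. The list mean was -3.36, -3.35 and -3.14 in intact striatum, -3.35, -3.16 and -3.16 in lesioned saline and -2.71, -1.72 and -2.17 after L-DOPA. Intact and lesioned saline arrays overlapped, and the L-DOPA arrays lay above both. By contrast, 14 genes of resting astrocytes had a median of 0.15, with none called.

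Timp1, which inhibits matrix metalloproteinases, went from -1.01, -1.06 and -1.42 in intact striatum to 1.01, 3.24 and 1.76 after L-DOPA. Lesioned saline arrays (-1.24, -1.26 and -1.15) lay within the intact range. The difference was 3.16 ± 0.56 (8.96-fold, adjusted p = 0.0344), and it was 2.01 within the first and 2.82 within the third slide.

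Emp1, a membrane protein of reactive glia and epithelia, was higher by 1.59 ± 0.26 (3.00-fold, adjusted p = 0.0287) and lay at the intact level in lesioned saline (0.01 ± 0.26). Lipocalin 2 (Lcn2) was at 2.45 ± 0.55, vimentin (Vim) at 1.05 ± 0.22 and the interferon-inducible GTPase Gbp2 at 1.04 ± 0.22, with adjusted p of 0.0665, 0.0537 and 0.0526. In all 3 the groups did not overlap. Gfap, the intermediate filament of astrocytes, overlapped, with intact arrays at -0.42, -1.45 and -2.46 and L-DOPA arrays at -1.71, 0.92 and -0.49.

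Of 16 tested genes of matrix and proteolysis 2 were called higher, Timp1 among them, against 0.924% of all features. The list median was 0.35. Fn1, fibronectin, was at 1.87 ± 0.44 (a second probe at 0.91) and Plaur, the urokinase receptor, at 2.57 ± 0.59 (a second probe at 4.03), neither called. Plaur was above background on 1 of 3 intact arrays, so the size of its difference is uncertain. For Fn1 the lesioned saline arrays were already high, at 0.18, -0.94 and -0.88 against -2.49, -1.39 and -2.57 in intact striatum.

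Tgfb1, a cytokine that induces matrix genes, was higher by 2.03 ± 0.33 (4.08-fold, adjusted p = 0.0280). It stood at -4.65, -4.71 and -5.57 in intact striatum, at -4.77, -4.84 and -4.91 in lesioned saline and at -3.57, -2.58 and -2.70 after L-DOPA. The step lay between lesioned saline and L-DOPA, where it was called too (1.89 ± 0.33, adjusted p = 0.0443).

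Of 16 endothelial genes 12 were positive with a median of 0.56; Angpt2, a ligand of the Tie2 receptor that loosens vessels, was called higher and Slc16a1 lower. Angpt2 stood at -5.35, -4.78 and -6.31 in intact striatum and at -3.60, -2.07 and -2.24 after L-DOPA, without overlap (2.84 ± 0.55, 7.16-fold, adjusted p = 0.0417). Kdr, the main VEGF receptor, was at 1.29 ± 0.29 and Nos3, endothelial nitric oxide synthase, at 1.09 ± 0.24, with adjusted p of 0.0681 and 0.0558.

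Of 11 mural cell genes 1 was called, Nes, the nestin filament of pericytes and progenitors (1.17 ± 0.24, adjusted p = 0.0468; a second probe at 1.42), and the list median was 0.39. Within the first slide that median was 0.04 and within the third 0.11. Pdgfrb (1.00 ± 0.46) and Rgs5 (0.52 ± 0.20), which mark pericytes, did not pass.

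Markers of other tissues moved with the comparison to differing degrees. All 12 tested choroid plexus genes were positive, with a median of 0.78 and none called, and the median ran from -0.62 to 2.64 over the processing choices. The mean of the 12 genes was -4.85, -3.37 and -3.78 on the lesioned saline arrays, each below the mean on every L-DOPA array. The list median was 2.53 for L-DOPA minus lesioned saline and -1.59 for lesioned saline minus non-lesioned. Ttr, the thyroid hormone carrier that defines this epithelium, stood at 2.34, 3.07 and 6.74 in intact striatum and at 4.33, 7.28 and 6.91 after L-DOPA. Its lesioned saline arrays stood at -0.73, 4.35 and 3.30. With the Ttr level as a covariate 4 features were called (2385 at an unadjusted p under 0.05 with limma). The 6 tested blood genes were all positive (median 0.50), as were 9 of 10 meningeal genes (median 0.42), with no call in either list. Microglial genes had a median of 0.09 and oligodendrocyte genes of 0.02, again with no call, and both medians changed sign under some processing choices. The part of these tissues in the results above was not tested beyond the fit with Ttr.

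**Figure D4:**
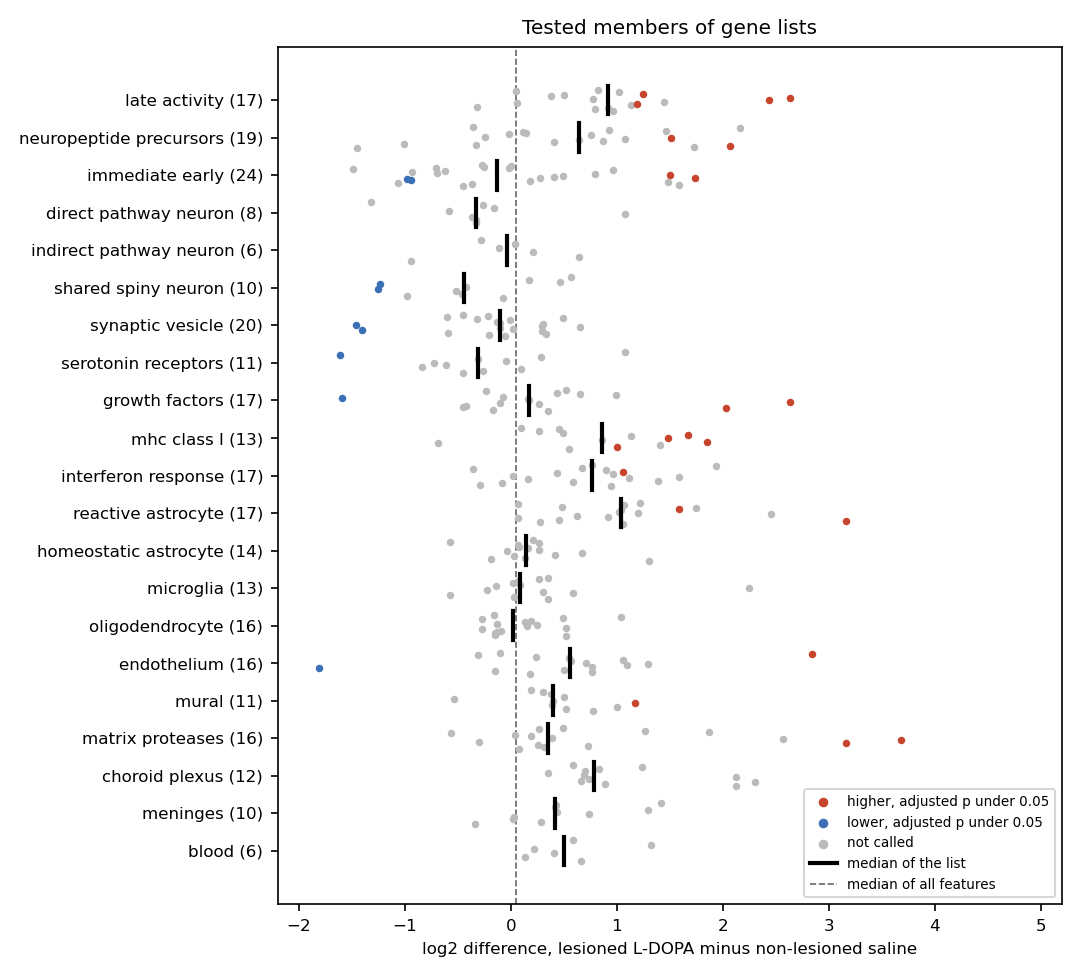
Log2 difference (L-DOPA lesioned minus non-lesioned saline, horizontal axis) of each tested member of 21 gene lists, with the number tested in parentheses, called members in red (higher) or blue (lower), the list median as a black bar and the median of all features as a dashed line. Late activity, MHC class I, interferon, reactive astrocyte and choroid plexus lists have medians between 0.76 and 1.04, and shared spiny neuron, direct-pathway and serotonin receptor lists lie below 0.

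**Figure D5:**
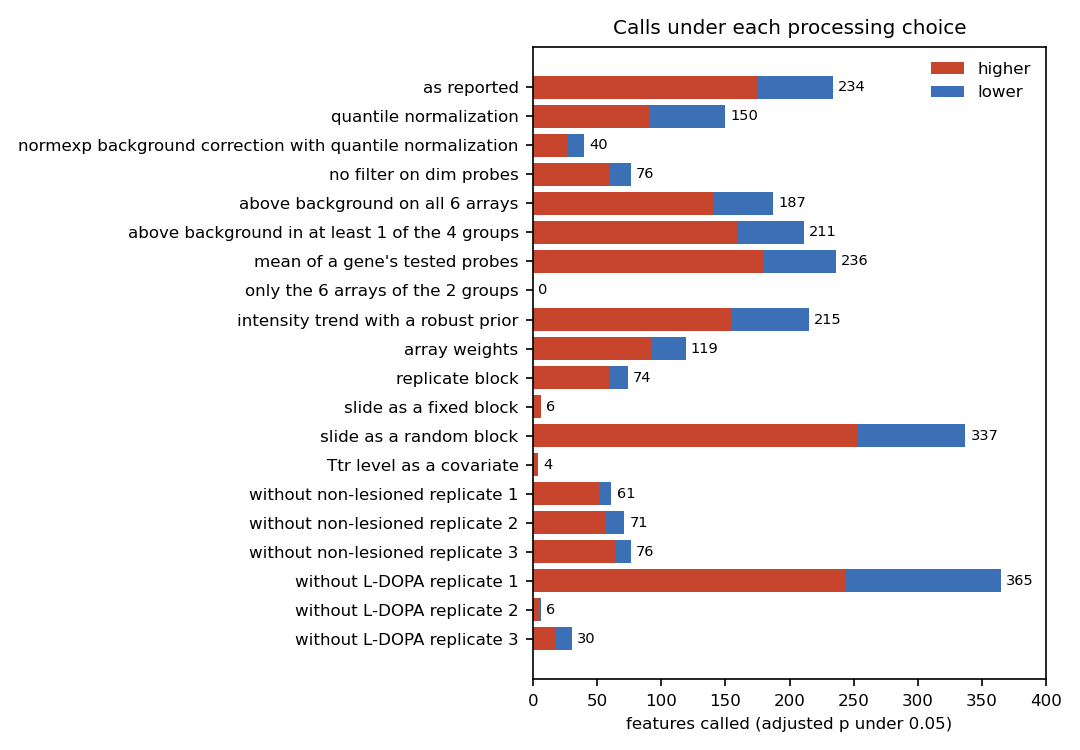
Number of features called higher (red) and lower (blue) at an adjusted p under 0.05 (horizontal axis) as reported and under each of 19 other processing choices. The count ran from 0 with the 6 arrays fitted alone to 365 without L-DOPA replicate 1.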

How the data were processed

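Striatal RNA was measured on 12 Agilent 1-colour arrays, 3 per group in 4 groups. The deposited scanner files hold intensity values; per the file headers they were read with version 10.7.3.1 of Agilent's Feature Extraction, and version 10.7 is named in the submitters' processing notes. The deposited processed intensity is already background-corrected by that software. Here it was averaged over the spots of a probe without control spots and outlier flags (62976 spots, 4259 of them controls), expressed as log2 and centred on the 75th percentile of each array. Of 30367 probes, 17328 carried 1 gene symbol and 13039 none. A probe was tested if well above background on all 3 arrays of either group, which left 20950 probes. For a gene with several probes the brightest over all arrays was used, which gave 18942 features. limma 3.58.1 (R 4.3.3) fitted all 12 arrays with 4 groups and 8 residual degrees of freedom, and p-values were two-sided and adjusted by Benjamini-Hochberg over all features at 0.05. The p-values set each difference against the spread between samples within all 4 groups, those with zonisamide among them.

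The genes named are the 12 largest rises and 12 largest falls among called genes with 1 symbol, called members of the gene lists, for each list described the 2 to 4 genes of lowest p, and Pdyn, Drd1, Drd2, Penk, Tac1 and Th. Npw, Prok2, Crhr1, Vipr1, Mas1, Ccl5, Ccl17, Tnfrsf1b, Bcl3, Tgm3, Crem, Lcn2, Gfap, Ttr, RT1-CE2, RT1-CE7, Ppp1r1b and Pde10a, and other list members given as examples of genes that were not called, were chosen after their values were seen. The comparison and the gene lists were chosen with earlier results of these data known. Some genes that meet this rule are not reported here. The fitting code was tested on simulated data. Alternatives covered normalization, background correction, the filter, probe choice, arrays fitted, array weights, slide, Ttr and leaving out each array.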

Additional observations from a re-analysis of the deposited data

How the results depend on the processing

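Each of the 234 calls that an alternative fitted (193 with a filter on all 6 arrays, all elsewhere) kept its direction, except 1 under the mean of a gene's probes, where 233 did. The groups of all 234 do not overlap, so without single arrays no direction could change. The 6 arrays fitted alone and the intensity trend use the same group means. For these settings the kept directions are no evidence. The number of calls varied widely. Against 234 calls (175 higher, 59 lower), quantile normalization gave 150 (91 higher), normexp with quantile normalization 40 (26 and 14), no filter on dim probes 76 (60 and 16) and array weights 119 (93 and 26). With a replicate block 74 features were called (59 and 15); deviations of same-numbered non-lesioned and L-DOPA arrays, which came from different rats, correlated at 0.29, 0.06 and 0.10, and the numbers were not taken as pairs. Slide as a fixed block gave 6 calls (6 and 0) and the Ttr covariate 4 (3 and 1). The 6 arrays fitted alone gave 0 (0 and 0, with 2084 at an unadjusted p under 0.05 in limma). Why the number of calls changed was not tested for any setting. Leaving out 1 array gave 6 to 365 calls, 5 to 243 higher and 1 to 122 lower. Slide as a random block gave 337 calls, an intensity trend 215, the mean of probes 236, and stricter or wider filters 187 and 211. Of the named genes, Drd2 (0.03) changed sign with quantile normalization (-0.031), the mean of probes (-0.10), array weights (-0.0080), slide as a fixed block (-0.17), without non-lesioned replicate 3 (-0.15) and without L-DOPA replicate 3 (-0.08); without single arrays it ran from -0.15 to 0.24. Grik3, a kainate receptor gene (0.20), did so without non-lesioned replicate 3 (-0.050), with a range of -0.050 to 0.34. Genes below background in intact striatum have at most a bound on their fold.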

Other observations

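Peptide signalling genes outside the gene lists were among the calls; the genes of these paragraphs, except Bhlhe40, were chosen after their values were seen. Npw, the neuropeptide W precursor, stood at -7.24, -6.53 and -7.22 in intact striatum (above background on 2 of 3 arrays) and at -5.25, -4.99 and -4.44 after L-DOPA (2.10 ± 0.36, limma adjusted p = 0.0309). Prok2, prokineticin 2, was likewise above background on 2 of 3 intact arrays and differed by 2.19 ± 0.42 (adjusted p = 0.0411). Npw and Prok2 passed the filter through the L-DOPA arrays alone, so their p-values rest in part on signals below background. Crhr1, the receptor of corticotropin-releasing hormone, went from -6.45, -6.04 and -6.37 to -4.63, -4.05 and -3.65, with lesioned saline arrays at -5.90, -6.17 and -6.91. Mas1, the angiotensin 1-7 receptor, differed by 1.71 ± 0.33 (adjusted p = 0.0427), and its lesioned saline arrays (-2.67, -3.25 and -3.19) overlapped with those after L-DOPA (-3.30, -2.60 and -2.08). Vipr1, a receptor of vasoactive intestinal peptide, stood at -2.1, -1.95 and -2.60, at -1.30, -1.42 and -1.61 and at -0.31, -0.27 and 0.10 in intact, lesioned saline and L-DOPA arrays, which did not overlap.

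The chemokine gene Ccl5 went from -3.31, -2.95 and -3.72 to -1.93, -1.22 and -0.44 (adjusted p = 0.0407), and Ccl17 differed by 2.10 ± 0.34 (adjusted p = 0.0283). Tnfrsf1b, a receptor of tumour necrosis factor, stood at -4.20, -4.35 and -4.14 in intact striatum, at -4.42, -4.38 and -4.01 in lesioned saline and at -3.17, -2.65 and -2.73 after L-DOPA (1.38 ± 0.19, adjusted p = 0.0160). Bcl3, a regulator of NF-kB, differed by 1.5 ± 0.26 (adjusted p = 0.0309). Tgm3, a transglutaminase, differed by 1.96 ± 0.27 (adjusted p = 0.0160), and its call was lost in 6 of 19 alternatives, those without L-DOPA replicate 2 or 3 among them. Bhlhe40 was the 1 called member of 14 tested clock genes (1.13 ± 0.21, adjusted p = 0.0407). No call was made in 17 tested complement genes, of which 15 were positive with a median of 0.46, beside 0.04 over all features.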
